A study of Mus musculus with 24 samples.

Results

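Hes1, a transcriptional repressor that is a classical target of Notch signalling, was followed together with 7 other genes of the Notch pathway in lymphocytes sorted from the injured mouse colon. The 8 genes were the receptors Notch1 and Notch2, the nuclear partners Rbpj, Maml1 and Maml2, the feedback genes Dtx1 and Nrarp, and Hes1 itself. All 8 were found by symbol among the 27179 gene identifiers of the count table. They were selected on the measured level of Hes1, which is high in group 2 innate lymphoid cells (ILC2) and lower there after the neuropeptide neuromedin U (NMU), so the ILC2 values of Hes1 are given below as a description without a test.

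RNA was sequenced from 3 populations of the colonic lamina propria of Nmur1 iCre-eGFP mice. In these animals green fluorescence reports the gene of the NMU receptor NMUR1, and every group carried the reporter. The populations were eGFP+ ILC2, gated as CD45+ Lin- CD90.2+ CD127+ KLRG1+, eGFP+ CD4 T cells (NMUR1+ below) and eGFP- CD4 T cells (NMUR1- below), both gated as CD45+ CD3+ CD5+ CD4+. All mice received 5 days of 3% dextran sulfate sodium (DSS), a polymer that damages the gut lining, in the drinking water, followed by 3 days of plain water. Mice 1 to 4 received NMU and mice 5 to 8 the vehicle phosphate-buffered saline (PBS) by intraperitoneal injection every other day over that time, which gave 6 groups of 4 libraries. No untreated mice without DSS belong to these groups, and the age of the animals is not given in the sources used here. In the design text there are 3 mice per treatment, whereas the sample labels name 4 and were followed.

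Notch receptors are membrane proteins that are cut when they bind a Delta-like or Jagged ligand on a neighbouring cell. The freed intracellular part enters the nucleus, joins the DNA-binding protein RBPJ and a Mastermind-like coactivator (MAML), and switches on target genes such as Hes1, Hey1, Dtx1 and Nrarp. Without the intracellular part, RBPJ sits with corepressors. In lymphocytes the pathway is best known for commitment to the T cell lineage, and Notch ligands also act on ILC2 and on helper T cells.

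Total counts per library ran from 8485266 to 17854961. Most listed ILC2 markers went with the labelled populations. Gata3 is the transcription factor that defines type 2 lymphocytes. Its mean was 5614 CPM (counts scaled to library size) in ILC2, against 1533 in NMUR1+ and 498 in NMUR1- cells. Of 13 listed ILC2 markers, 10 were higher and 1 lower in ILC2 than in NMUR1+ cells, and 12 higher and 1 lower than in NMUR1- cells. Thy1 went the other way, with means of 83.8 CPM in ILC2, 235 in NMUR1+ and 408 in NMUR1- cells. Thy1 (CD90), Il7r (CD127), Klrg1 and Nmur1 of this list were also part of the ILC2 sort. Immunoglobulin genes took from 0.784% to 30.4% of the counts in NMUR1+ libraries, with 4 of the 8 above 20% (mice 1, 4, 5 and 7), against 0.146% to 5.58% in NMUR1- libraries. In ILC2 libraries the share was 0.0241% to 0.867% after NMU and 0.665% to 7.93% after PBS. The ILC2 library of mouse 1 had the fewest genes with counts of all 24 libraries, 10778.

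Hes1 (chr16:30065357-30067796 on GRCm38) was abundant in every ILC2 library. In ILC2 of the NMU mice 1 to 4 it stood at 530.5, 1140, 602.6 and 832.4 CPM, and in ILC2 of the PBS mice 5 to 8 at 1784, 1887, 1717 and 1982 CPM. The groups did not overlap, and the PBS libraries lay much closer together (1843 ± 116 CPM, SD, n = 4) than the NMU libraries (776 ± 275 CPM, SD, n = 4). The fitted log2 difference, NMU minus PBS, was -1.27 (SE 0.22). This contrast chose the genes, so no p-value is given.

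**Figure D1:**
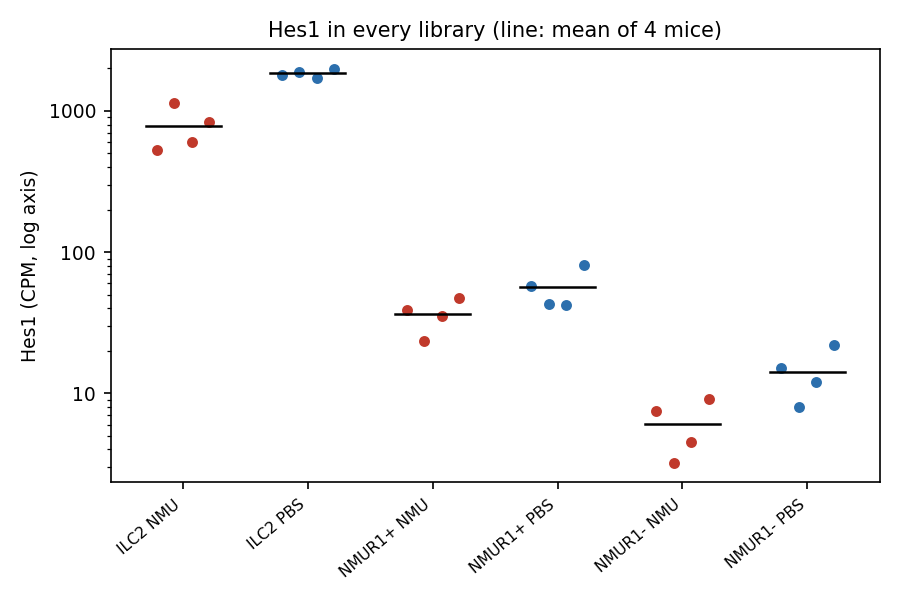
Hes1 in each of the 24 libraries, in CPM on a log axis, by population and treatment, with the mean of 4 mice as a line. ILC2 libraries range from 530.5 to 1982 CPM and no CD4 T cell library exceeds 81.65 CPM.

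CD4 T cells held far less Hes1. In NMUR1+ cells it measured 39.09, 23.44, 35.53 and 46.96 CPM in the NMU mice and 57.96, 43.06, 42.48 and 81.65 CPM in the PBS mice. In NMUR1- cells the NMU mice had 7.54, 3.23, 4.53 and 9.07 CPM and the PBS mice 15.0, 8.02, 11.9 and 22.0 CPM. The order of the means was therefore ILC2, NMUR1+, NMUR1-, with PBS above NMU in each population. The fitted log2 differences of ILC2 were 4.73 (SE 0.26) over NMUR1+ and 7.02 (SE 0.29) over NMUR1- cells, again without a test. The ILC2 libraries overlapped neither CD4 population in Hes1, as was the case for 10.3% (NMUR1+) and 14.4% (NMUR1-) of 13509 genes in either direction, and nothing is read from this.

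Between the CD4 populations, which the choice of genes did not use, Hes1 was higher in NMUR1+ cells in 8 of 8 mice. The log2 difference was 2.29 (SE 0.24) with an adjusted p of 2.94e-06, and the 8 NMUR1+ libraries did not overlap the 8 NMUR1- libraries, which held for 3.31% of genes in either direction. Of all 13509 genes tested in this comparison, 5.49% were called higher and 8.31% in either direction. Without the 4 NMUR1+ libraries above 20% immunoglobulin the difference was 2.22 (adjusted p = 1.3e-04). Markers of ILC2 moved the same way: 11 of 13 listed ILC2 markers were higher in NMUR1+ than in NMUR1- cells and 1 was lower, with summed levels of 4070 to 6350 CPM against 1930 to 2950 CPM. The list includes Nmur1, whose reporter defined these sorts (means of 41.2 against 4.38 CPM). None of these 13 was at 0 in either population. Markers of B and plasma cells (7 of 11 higher, none lower) and of macrophages and dendritic cells (6 of 12 higher, none lower) did so too. Their summed levels were 4700 to 192000 CPM against 1650 to 23400 CPM and 1760 to 5250 CPM against 486 to 1520 CPM. The part of these other cells in the Hes1 difference was not tested.

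After NMU, Hes1 was also lower on average in the CD4 populations, where neither difference passed the test. In NMUR1- cells the log2 difference was -1.23 (SE 0.38, unadjusted p = 0.0085, adjusted p = 0.577). In NMUR1+ cells it was -0.63 (SE 0.27, unadjusted p = 0.0394, adjusted p = 1). The groups overlapped in both cases, in NMUR1- cells through mouse 4 (NMU) and mouse 6 (PBS). No gene at all passed with edgeR in these comparisons (0% of 12061 in NMUR1+ and 0% of 12103 in NMUR1- cells), while 307 genes (2.55%) and 877 genes (7.25%) had an unadjusted p below 0.05 and DESeq2 called 4 and 23. On the log2 scale, the NMU difference of Hes1 in ILC2 minus that in NMUR1+ cells was -0.62 (SE 0.45), and minus that in NMUR1- cells it was -0.03 (SE 0.45).

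The receptor Notch1 (chr2:26457902-26503822) had a mean of 31.5 ± 16.5 CPM across ILC2 libraries, against 41.1 ± 7.57 in NMUR1+ and 43.4 ± 9.09 in NMUR1- libraries (SD, n = 8 each), and no population differed from another past the test. Its ILC2 spread was wide, with 4.23 CPM in mouse 1 against 58.8, 41.0 and 38.9 CPM in the other NMU mice and 15.8, 29.1, 34.6 and 29.8 CPM in the PBS mice. Treatment made no difference past the test in any population. The nearest was NMUR1- cells, with 41.1, 29.8, 34.2 and 44.6 CPM after NMU and 50.4, 39.2, 56.8 and 51.0 CPM after PBS (log2 -0.40, SE 0.16, unadjusted p = 0.0293, adjusted p = 0.642).

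Notch2 (chr3:98013538-98150367), the other receptor that these cells transcribed, was the more ILC2-biased of the pair. In ILC2 it ran at 22.2, 53.7, 29.0 and 36.4 CPM in the NMU mice and 42.8, 43.4, 29.5 and 36.7 CPM in the PBS mice. NMUR1+ libraries lay between 8.64 and 19.98 CPM and NMUR1- libraries between 11.8 and 25.5 CPM, so ILC2 overlapped the NMUR1- but not the NMUR1+ libraries. ILC2 exceeded NMUR1+ cells by 1.24 (SE 0.21, adjusted p = 4.95e-05) and NMUR1- cells by 1.03 (SE 0.21, adjusted p = 3.08e-04) on the log2 scale, in 8 of 8 mice each. NMU and PBS did not differ past the test in any population. The receptors Notch3 and Notch4 averaged below 1 CPM in every population (0.106 to 0.71 CPM for Notch3 and 0.35 to 0.71 CPM for Notch4), and no difference between populations passed the test. The nearest was Notch3 in ILC2 against NMUR1- cells (0.71 against 0.106 CPM, log2 2.53, SE 1.11, unadjusted p = 0.027, adjusted p = 0.0633).

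**Figure D2:**
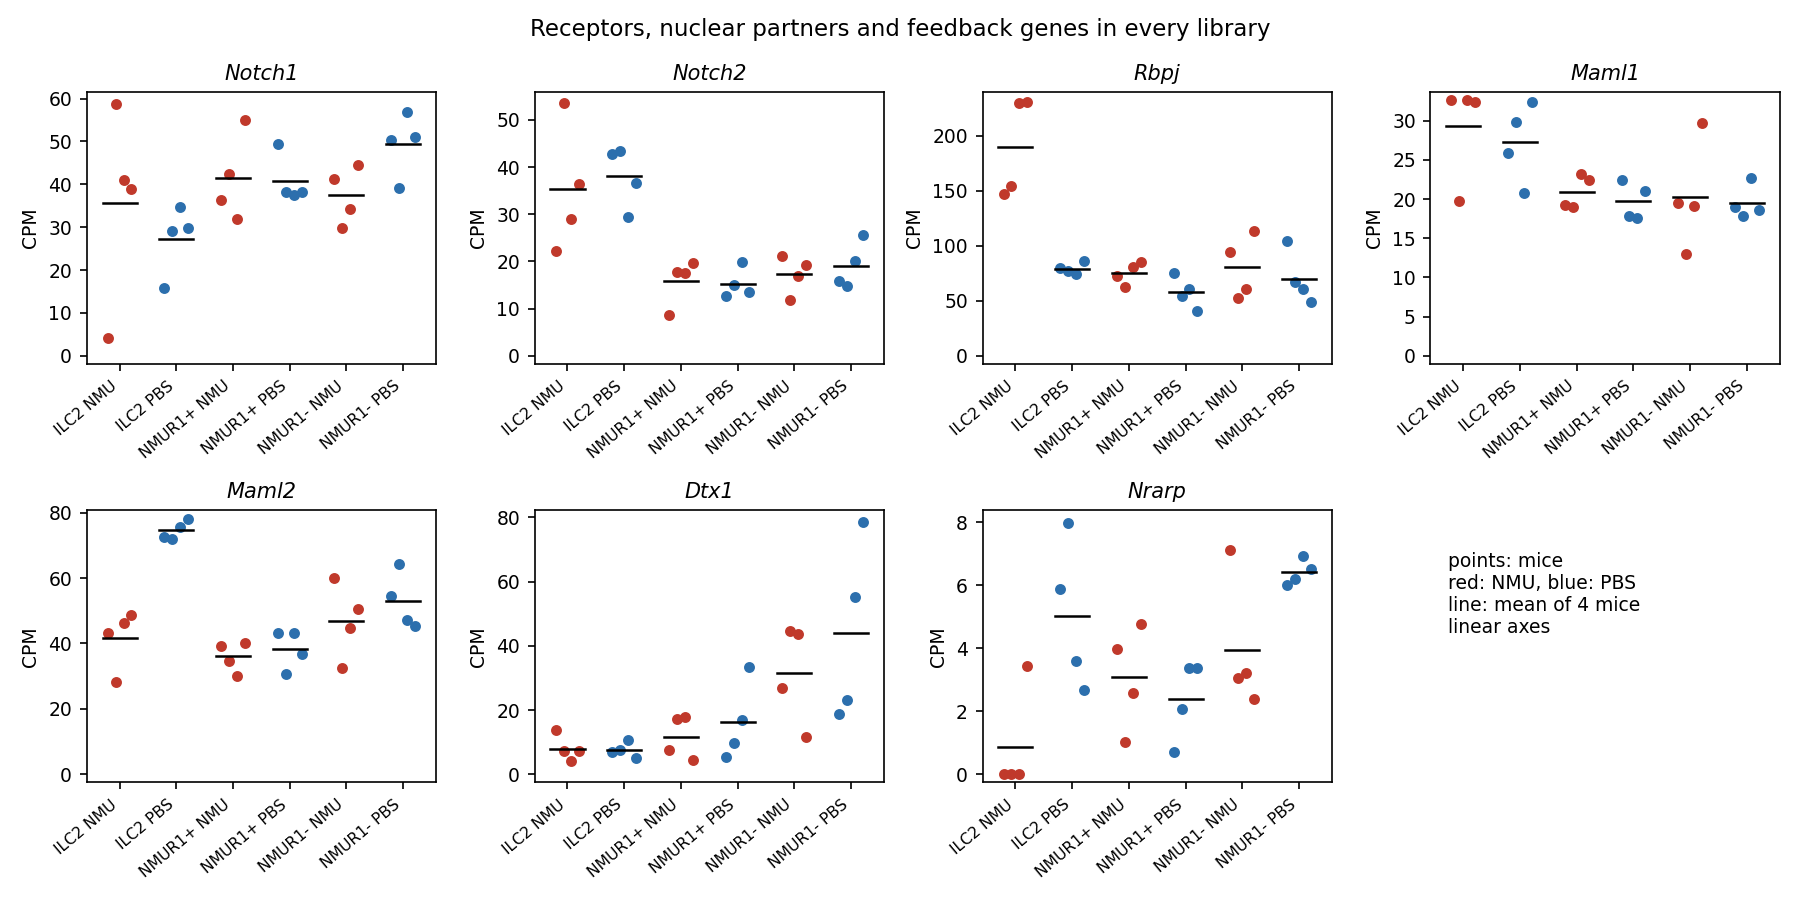
Levels of Notch1, Notch2, Rbpj, Maml1, Maml2, Dtx1 and Nrarp in each library, in CPM on linear axes, with NMU mice in red, PBS mice in blue and the mean of 4 mice as a line. Rbpj is highest in ILC2 of NMU mice (147.2 to 230.5 CPM), Maml2 in ILC2 of PBS mice (71.91 to 78.14 CPM), and Dtx1 in NMUR1- cells.

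Rbpj (chr5:53555779-53657445), the DNA-binding hub of the pathway, ran opposite to Hes1 in ILC2. It stood at 147, 154, 229.7 and 230.5 CPM in the NMU mice and at 79.5, 77.2, 74.0 and 86.7 CPM in the PBS mice. Every NMU library lay above every PBS library, as for 9.4% of the 11205 genes tested in either direction. Rbpj rose by 1.24 on the log2 scale (SE 0.19, adjusted p = 0.0207). That p moved between 0.0149 and 0.0798 when 1 mouse was left out and stayed below 0.05 only without mouse 1 or mouse 2, so the call was lost without any of mice 3 to 8 (log2 1.13 to 1.29).

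In T cells Rbpj did not follow treatment past the test. NMUR1+ cells had 72.8, 62.2, 80.5 and 85.6 CPM after NMU and 75.0, 54.2, 61.1 and 40.5 CPM after PBS (log2 0.39, SE 0.20, adjusted p = 1). NMUR1- cells had 94.1, 52.4, 61.1 and 113.7 CPM after NMU and 104.5, 66.9, 60.8 and 48.9 CPM after PBS (log2 0.19, SE 0.28, adjusted p = 0.926). The NMU effect on Rbpj was larger in ILC2 by 0.87 (SE 0.35, adjusted p = 0.254) and 1.06 (SE 0.35, adjusted p = 0.192), neither past the test, so a difference between the populations in this effect was not shown. Averaged over treatments, ILC2 exceeded NMUR1+ cells by 0.90 (SE 0.17, adjusted p = 2.38e-04) and NMUR1- cells by 0.72 (SE 0.17, adjusted p = 0.00177). Among PBS mice alone these differences were 0.47 (adjusted p = 0.173) and 0.19 (adjusted p = 0.645), and among NMU mice alone 1.34 (adjusted p = 3.63e-04) and 1.26 (adjusted p = 5.47e-04).

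The coactivator gene Maml2 (chr9:13296561-13709533) was the other member whose ILC2 groups did not overlap. It measured 43.1, 28.2, 46.2 and 48.7 CPM after NMU and 72.6, 71.9, 75.7 and 78.1 CPM after PBS. The log2 difference of -0.87 (SE 0.21) missed the threshold with an adjusted p of 0.105. It passed with DESeq2 (adjusted p = 0.00411) and in the fit of all 24 libraries (adjusted p = 0.0102). In NMUR1+ cells (30.1 to 43.2 CPM) and NMUR1- cells (32.6 to 64.4 CPM) the NMU differences were -0.09 (SE 0.19) and -0.18 (SE 0.19), and the excess of the ILC2 effect over them was -0.76 (SE 0.27, adjusted p = 0.197) and -0.68 (SE 0.27, adjusted p = 0.304). ILC2 exceeded NMUR1+ cells in Maml2 by 0.59 (SE 0.14, adjusted p = 0.00138), with 0.97 among PBS mice (adjusted p = 6.22e-04) and 0.21 among NMU mice (adjusted p = 0.471). Against NMUR1- cells the difference was 0.17 (SE 0.13, adjusted p = 0.326).

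Maml1 (chr11:50255634-50293131), a second coactivator, was flat by comparison. Its libraries ran from 19.8 to 32.7 CPM in ILC2, from 17.6 to 23.2 CPM in NMUR1+ and from 13.0 to 29.7 CPM in NMUR1- cells. ILC2 exceeded NMUR1+ cells by 0.48 (SE 0.17, adjusted p = 0.0237) and NMUR1- cells by 0.52 (SE 0.16, adjusted p = 0.0146). The first of these was lost without the NMUR1+ libraries above 20% immunoglobulin (0.49, adjusted p = 0.11), and without mouse 1, 6 or 8 (adjusted p up to 0.0682). The second was lost without mouse 6 or 8 (adjusted p up to 0.062). The NMU differences in the 3 populations were 0.09, 0.09 and 0.05 with SEs of 0.28, 0.22 and 0.23. The related gene Maml3 averaged 0.785 to 1.27 CPM.

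Upstream sequence is shown for Rbpj and Maml2, the members besides Hes1 whose ILC2 groups separated, because both act with RBPJ, whose known binding motif is GTGGGAA with the core TGGGAA. RefSeq promoter windows on GRCm38.p6 were found for 7 of the 8 genes, 9 windows in all, each searched over the 250 bases before the start on both strands. The core is shown in capitals, as TTCCCA where it lies on the opposite strand. The Rbpj stretch (chr5:53590096-53590213, plus strand) is the upstream 118 bases of its window, cut where an annotated exon of the gene begins. It holds a match whose last base is 144 bases before the start at 53590346. This start lies inside the gene, whose coordinates begin at 53555779. The Maml2 stretch (chr9:13662210-13662459, plus strand) precedes an inner start of the gene and holds a match 140 bases before it.
Rbpj: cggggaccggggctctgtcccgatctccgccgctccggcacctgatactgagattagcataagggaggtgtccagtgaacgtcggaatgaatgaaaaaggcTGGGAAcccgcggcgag
Maml2: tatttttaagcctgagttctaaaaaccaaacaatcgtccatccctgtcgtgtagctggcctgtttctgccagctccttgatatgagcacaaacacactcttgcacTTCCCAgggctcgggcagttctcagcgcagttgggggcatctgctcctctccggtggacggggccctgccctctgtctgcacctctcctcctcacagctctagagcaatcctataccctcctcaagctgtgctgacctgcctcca
The core is common: 21.6% of 32851 windows of that length held it, 2.77% held it at least 2 times as the first Rbpj window does, and 5.42% held GTGGGAA, which none of the 9 windows did. The windows of Notch1, Notch2, Dtx1, Nrarp and Maml1 and that of the outer Maml2 start held no core match, which says only that these letters are not there.

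Dtx1 (chr5:120680203-120711867) encodes a ubiquitin ligase that is induced by Notch and acts on it, and its order was the reverse of that of Hes1. NMUR1- cells had 26.9, 44.7, 43.6 and 11.5 CPM in the NMU mice and 18.6, 23.2, 55.2 and 78.4 CPM in the PBS mice. NMUR1+ cells had 7.51, 17.2, 17.9 and 4.42 CPM in the NMU mice and 5.48, 9.65, 16.9 and 33.5 CPM in the PBS mice. ILC2 had the least, 4.03 to 13.7 CPM. NMUR1+ cells were below NMUR1- cells in 8 of 8 mice (log2 -1.41, SE 0.40, adjusted p = 0.0309). That call was lost when any of mice 1, 2, 3, 6 or 7 was left out (adjusted p up to 0.0973). It was also lost without the NMUR1+ libraries above 20% immunoglobulin (-0.92, adjusted p = 0.367). The last fit kept the NMUR1- libraries of mice 1, 4, 5 and 7, so the mice differed between its sides. In mice 2, 3, 6 and 8, NMUR1+ cells had 17.2, 17.9, 9.65 and 33.5 CPM and NMUR1- cells 44.7, 43.6, 23.2 and 78.4 CPM. These fits took both libraries of a mouse as independent, and the call was kept with the mouse as a block.

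ILC2 were below NMUR1- cells in Dtx1 in 8 of 8 mice as well (log2 -2.24, SE 0.42, adjusted p = 1.42e-04). Against NMUR1+ cells the difference of -0.83 (SE 0.40) missed the threshold (adjusted p = 0.109). It passed without the NMUR1+ libraries above 20% immunoglobulin, with every ILC2 library kept (-1.31, adjusted p = 0.027). NMU made no difference past the test, with log2 values of 0.04 in ILC2, -0.47 in NMUR1+ and -0.47 in NMUR1- cells and SEs of 0.57 to 0.62.

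Nrarp (chr2:25180758-25183339), a feedback inhibitor of the Notch complex, was the scarcest member. In ILC2 of NMU mice 1, 2 and 3 it had 0 counts, which allows up to 0.295, 0.335 and 0.228 CPM by a floor of 3 counts, and in mouse 4 it had 48 counts (3.43 CPM). ILC2 of the PBS mice had 5.90, 7.98, 3.59 and 2.68 CPM, so the library of mouse 4 lay inside the PBS range and the others below it. The fitted log2 difference was -2.53 with an SE of 1.75 (adjusted p = 0.638). In NMUR1- cells, Nrarp stood at 7.14, 3.07, 3.21 and 2.40 CPM after NMU and at 6.02, 6.19, 6.92 and 6.52 CPM after PBS (log2 -0.71, SE 0.34, adjusted p = 0.691), with mouse 1 alone above the PBS libraries. NMUR1+ libraries ran from 0.70 to 4.79 CPM.

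Averaged over treatments, Nrarp in ILC2 was -1.24 (SE 0.74, adjusted p = 0.188) relative to NMUR1- cells on the log2 scale. The fit with the mouse as a block gave -2.30 (adjusted p = 0.045). Relative to NMUR1+ cells the difference was -0.36 (SE 0.73, adjusted p = 0.732). Nrarp depended on mouse 4, whose ILC2 library was the only one with counts after NMU. Without that mouse the adjusted p was 3.95e-05 against NMUR1- cells and 6.93e-04 against NMUR1+ cells. The differences between its NMU effects also passed without mouse 4 (ILC2 minus NMUR1+, adjusted p = 0.00495, and ILC2 minus NMUR1-, adjusted p = 0.00896), but not with it (-2.89, SE 1.49, adjusted p = 0.42, and -1.82, SE 1.47, adjusted p = 0.745). With ILC2 of all remaining NMU mice at 0, the fitted log2 values without mouse 4 depend on the prior count and are not given.

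Among the 7 members other than Hes1, 1 passed in the NMU comparison of ILC2, Rbpj, where 0.66% of the 11205 genes tested passed (0.402% higher, 0.259% lower), and nothing is read from this count because the contrast chose the genes. None of the 8 passed in NMUR1+ or NMUR1- cells. None of the 7 passed in the differences between NMU effects, where 0.725% (ILC2 minus NMUR1+) and 0.533% (ILC2 minus NMUR1-) of 13509 genes did. Per kilobase of annotated exon, Hes1 was the highest member in ILC2 after either treatment (381 and 904.6 CPM per kilobase after NMU and PBS), followed by Rbpj after NMU (14.9) and by Maml2 after PBS (11.3). In NMUR1- cells the same measure put Maml2 (7.57) and Dtx1 (7.17) first and Hes1 at 4.99. Since these are bulk samples, fewer cells that express a gene and less RNA per cell cannot be told apart.

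**Figure D3:**
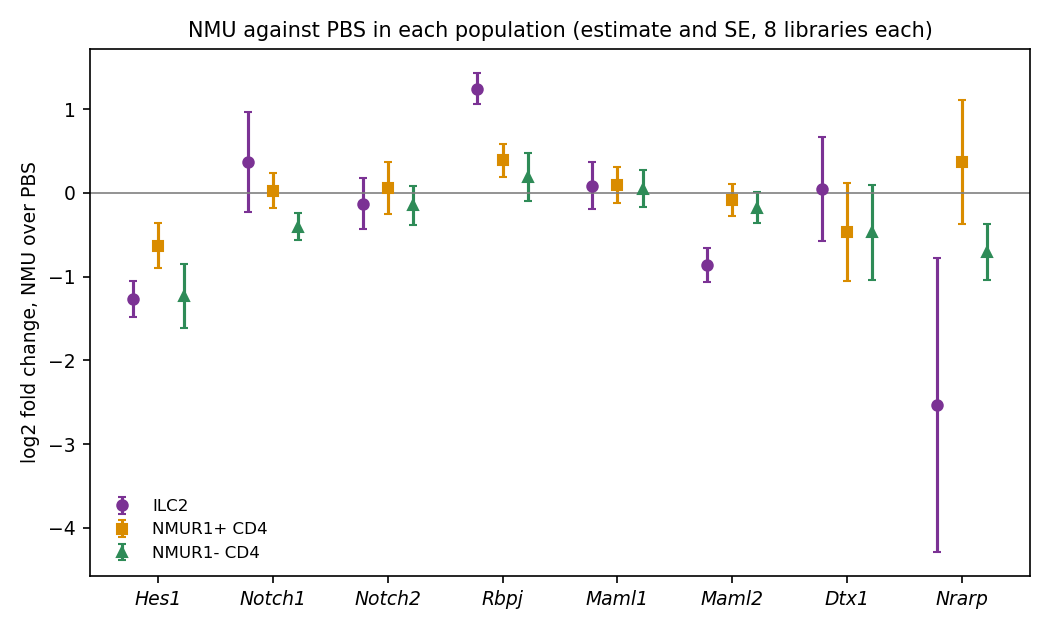
Fitted log2 difference between NMU and PBS for each of the 8 genes in each population, with the standard error as a bar (8 libraries per fit). In ILC2 Hes1 is at -1.27, Maml2 at -0.87 and Rbpj at 1.24, and the Nrarp bar is the widest (SE 1.75).

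Beside these ILC2 differences stand those in markers of other cells. B and plasma cell markers summed to 1080 to 4690 CPM in ILC2 of NMU mice and 3670 to 33900 CPM in ILC2 of PBS mice. Within that list Cd79b went the other way without overlap (59.4 to 154 CPM after NMU against 37.3 to 58.0 CPM). Xbp1 was even (means of 724 and 732 CPM). For macrophage and dendritic cell markers the sums were 164 to 549 CPM against 245 to 1560 CPM, and for fibroblast markers 0 to 35.3 CPM against 12.2 to 385 CPM. None of the 9, 11 and 6 tested genes of these lists passed, with median log2 differences of -2.77, -1.89 and -3.81. Lum and Mgp, fibroblast matrix genes, and Itgax, a dendritic cell integrin, were at 0 in ILC2 of NMU mice, as were Cdh5, Tek, Vwf, Emcn and Esam of the 9 endothelial markers and Lgr5, Muc2 and Olfm4 of the 13 epithelial markers. The sums of the endothelial list were 29.2 to 92.9 CPM against 63.5 to 73.9 CPM, and those of the epithelial list 38.5 to 74.1 CPM against 23.5 to 64.9 CPM. ILC2 markers (14200 to 19300 CPM against 15400 to 17000 CPM) and CD4 T cell markers (655 to 987 CPM against 638 to 913 CPM) overlapped between treatments in their sums. Within the ILC2 list, Il5, Areg and Id2 were higher and Il17rb lower after NMU without overlap of the groups, and none of them passed. Groups did not overlap for 9.4% of all genes tested. Single markers passed in these lists: Klrg1, a receptor that was also part of the ILC2 gate, was 1 of 13 ILC2 markers (1272 to 1698 CPM after NMU against 685 to 958 CPM) and Epcam, an adhesion protein, 1 of 6 tested epithelial markers (32.5 to 60.8 CPM against 8.39 to 14.4 CPM), both higher after NMU. The part of these cells in the differences of Hes1, Rbpj and Maml2 was not tested.

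In the comparison of ILC2 with NMUR1+ cells, 4 of the 7 members other than Hes1 were higher (Notch2, Rbpj, Maml1 and Maml2) and none lower, where 38.6% of 13509 genes were called (15.1% higher, 23.5% lower). Against NMUR1- cells, 3 were higher (Notch2, Rbpj and Maml1) and Dtx1 lower, where 40.5% were called (16.4% higher, 24.1% lower). Both comparisons share the ILC2 libraries and belong to the contrast that chose the genes. Markers of other cells moved with them. B and plasma cell markers were lower in ILC2 in 11 of 11 against NMUR1+ cells (summed 1080 to 33900 CPM against 4700 to 192000 CPM) and in 5 of 11 against NMUR1- cells, with 1 higher. Macrophage and dendritic cell markers were lower in 11 of 12 (164 to 1560 CPM against 1760 to 5250 CPM) and 3 of 12, and CD4 T cell markers in 10 of 10 in both. Their part in the members' differences was not tested. Between the CD4 populations, Hes1 was higher in NMUR1+ cells and Dtx1 lower. Maml2 was close to the threshold there (log2 -0.41, SE 0.13, adjusted p = 0.0594), and the other 5 were not past it.

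Beyond the members, 88 further genes of the pathway were listed by role. After NMU, 0 of the 68 tested passed in ILC2 (14 had an unadjusted p below 0.05, as did 12.4% of all genes tested), 0 of 70 in NMUR1+ and 0 of 69 in NMUR1- cells. Their median log2 difference in ILC2 was -0.17, and that of all genes tested was -0.03. Of 76 tested between populations, 25 were higher and 10 lower in ILC2 than in NMUR1+ cells, and 25 higher and 16 lower than in NMUR1- cells, beside the shares of all genes given above. NMUR1+ exceeded NMUR1- cells in 8 and were below them in 6, where 5.49% of all genes were higher and 2.83% lower.

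Among ligands, only Jag1 (Jagged 1) had more than a trace. In ILC2 it measured 96.4, 38.4, 37.0 and 38.3 CPM after NMU and 123.7, 94.8, 120.4 and 84.7 CPM after PBS. Mouse 1 lay inside the PBS range and the other NMU mice below it. The log2 difference was -1.04 (SE 0.32, adjusted p = 0.194), and without mouse 1 it was -1.50 (adjusted p = 0.0149). NMUR1+ cells averaged 4.24 CPM and NMUR1- cells 2.11 CPM, and ILC2 exceeded them by 4.16 (SE 0.47, adjusted p = 3.47e-07) and 5.15 (SE 0.50, adjusted p = 2.13e-08) in 8 of 8 mice. Dll1, Jag2, Dll3, Dll4 and Dlk1 averaged 1.17 CPM or less in each population, and Dlk2 had no counts in any library.

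**Figure D4:**
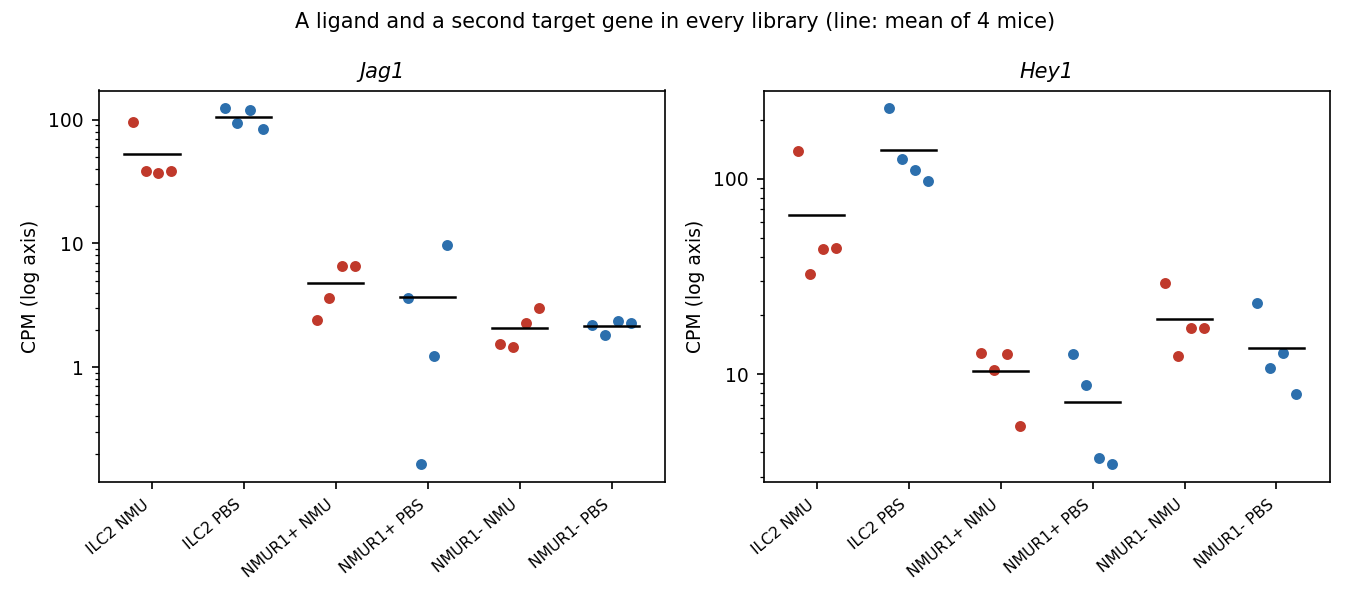
The ligand gene Jag1 and the target gene Hey1 in each library, in CPM on log axes, with the mean of 4 mice as a line. In ILC2 the NMU library of mouse 1 (96.4 and 139 CPM) stands apart from the other NMU mice (37.0 to 38.4 and 32.8 to 44.1 CPM), and both genes are lower in all CD4 T cell libraries than in any ILC2 library.

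Hey1, a repressor of the same family as Hes1, shared its excess in ILC2. Its ILC2 libraries held 139, 32.8, 43.9 and 44.1 CPM after NMU and 229, 125.5, 110.5 and 97.5 CPM after PBS (log2 -1.14, SE 0.45, adjusted p = 0.328). ILC2 exceeded NMUR1+ cells (8.80 ± 4.07 CPM, SD, n = 8) by 3.47 (SE 0.36, adjusted p = 1.05e-07) and NMUR1- cells (16.4 ± 7.06 CPM, SD, n = 8) by 2.58 (SE 0.35, adjusted p = 3.02e-06). Unlike Hes1, Hey1 was not higher in NMUR1+ than in NMUR1- cells in any mouse (log2 -0.89, SE 0.34, adjusted p = 0.11). Of the list of 11 Hes and Hey factors 6 had enough counts between populations, among them Hes1, which has no test against ILC2. Hey1 and Bhlhe40 were higher and Bhlhe41 lower in ILC2 than in both CD4 populations. The shares over all genes were 15.1% higher and 23.5% lower against NMUR1+ cells, and 16.4% higher and 24.1% lower against NMUR1- cells. Hes5, Hes7, Hey2 and Heyl averaged at most 1.06 CPM, and Hes6 was even, at 38.2, 42.5 and 39.9 CPM in ILC2, NMUR1+ and NMUR1- cells.

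Of 10 genes for cutting the receptor, 5 were lower and 1 higher in ILC2 than in NMUR1+ cells, where 23.5% of all genes were lower and 15.1% higher. The lower ones were Ncstn, Psen2, the sheddases Adam17 (57.1 against 122 CPM, log2 -1.08, adjusted p = 1.49e-06) and Adam10 (log2 -0.50, adjusted p = 0.00259), and the gamma-secretase subunit Psenen (log2 -0.70, adjusted p = 8.59e-06). Furin, the convertase that processes the receptor precursor, was higher (log2 1.42, adjusted p = 0.00132). Against NMUR1- cells, 3 of the 10 were lower (Adam17, Adam10 and Psenen) and 1 higher (the gamma-secretase subunit Psen2), close to the 24.1% and 16.4% of all genes. NMUR1+ exceeded NMUR1- cells in Psen2 (203 against 114 CPM, log2 0.85, adjusted p = 2.19e-04) and Ncstn (log2 0.38, adjusted p = 0.0289).

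Receptor glycosylation and turnover were covered by 2 further lists. Pofut1, which puts the first sugar on Notch, was higher in ILC2 than in NMUR1+ cells by 1.28 (adjusted p = 5.39e-04) and than in NMUR1- cells by 1.37 (adjusted p = 2.37e-04) on the log2 scale. The ubiquitin ligase gene Nedd4 had a mean of 247 CPM in ILC2, against 20.4 in NMUR1+ and 12.6 in NMUR1- cells (log2 3.58 and 4.31, adjusted p = 5.36e-10 and 2.86e-11). In the glycosylation and endocytosis list, 4 of 9 tested were higher and 1 lower in ILC2 than in NMUR1+ cells, and 5 were higher and 2 lower than in NMUR1- cells. In the turnover list of 14, 4 were higher and none lower than in NMUR1+ cells, and 5 were higher and 3 lower than in NMUR1- cells. The shares over all genes were 15.1% higher and 23.5% lower, and 16.4% higher and 24.1% lower.

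Nuclear corepressors went in both directions. Of 18 tested, 6 were higher and 2 lower in ILC2 than in NMUR1+ cells, and 4 higher and 6 lower than in NMUR1- cells. Over all genes 15.1% were higher and 23.5% lower in the first comparison and 16.4% and 24.1% in the second, and nothing is read from these counts. In the corepressor gene Ncor1, ILC2 exceeded NMUR1+ cells by 0.83 (adjusted p = 2.42e-08) and NMUR1- cells by 0.46 (adjusted p = 7.33e-05) on the log2 scale. Ctbp1 and Hdac2 were lower in NMUR1+ than in NMUR1- cells (log2 -0.94, adjusted p = 0.00471, and -0.99, adjusted p = 0.00483).

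Of 20 listed lymphocyte targets of Notch, 18 could be tested between populations. In ILC2, 9 were higher and 1 lower than in NMUR1+ cells, and 8 were higher and 3 lower than in NMUR1- cells. The higher counts include Hes1, which chose the genes and has no test here, so nothing is read from its part in them. Of all genes, 15.1% were higher and 23.5% lower in the first comparison and 16.4% and 24.1% in the second. Besides Hes1, the genes that were higher in both comparisons were Hey1, Myc, Ccnd1, Il2ra, Gata3, Il7r and Ahr. Gata3 is at the same time the defining factor of ILC2, and Il7r encodes CD127, which was part of the ILC2 gate only. Tcf7, a T cell transcription factor, had means of 41.2 CPM in ILC2, 37.1 in NMUR1+ and 196 in NMUR1- cells, and was lower in both than in NMUR1- cells (log2 -2.36, adjusted p = 5.15e-08, and -2.40, adjusted p = 2.33e-06). Against NMUR1- cells this list moved in both directions, with Dtx1 and Tcf7 among the genes lower in ILC2.

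The NMUR1+ and NMUR1- libraries of a mouse come from 1 colon, and the correlation of their levels across the 8 mice was computed for each of the 8 members. The p-values given are unadjusted, and 3 of the 8 for Pearson's r were under 0.05 (Hes1, Dtx1 and Rbpj). For Hes1, log2 CPM of the 2 libraries had Pearson's r = 0.951 (exact permutation p = 4.46e-04) and Spearman's rho = 0.929 (exact permutation p = 0.00223). Without mice 2 and 8, the farthest from the median in NMUR1+ cells, r was 0.866. For Dtx1, r was 0.97 (exact permutation p = 5.95e-04), rho was 0.881 (exact permutation p = 0.00724), and r without mice 4 and 8 was 0.938. Rbpj had r = 0.716 (exact permutation p = 0.0312) and rho = 0.714 (exact permutation p = 0.0576), but r was 0.438 without mice 4 and 8, and the other 5 had r from -0.279 to 0.301. After the mean of each treatment was taken off, r was 0.925 for Hes1 and 0.969 for Dtx1 (exact permutation within treatments, p = 0.00347 for each) and 0.765 for Rbpj (p = 0.0382 by the same exact permutation). Hes1 and Dtx1 did not rank the mice alike: mouse 8 was highest for both, but mouse 2 was lowest for Hes1 and mouse 4 for Dtx1. The NMUR1- libraries with the most immunoglobulin, those of mice 4, 5 and 1 (5.58%, 3.95% and 2.83%), were 3 of the 4 lowest in Dtx1. Among NMUR1+ libraries, those of mice 1, 4 and 5 had the most (30.4%, 29.6% and 26.7%). They were the lowest in Dtx1 (7.51, 4.42 and 5.48 CPM). The part of other cells in this pattern was not tested.

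**Figure D5:**
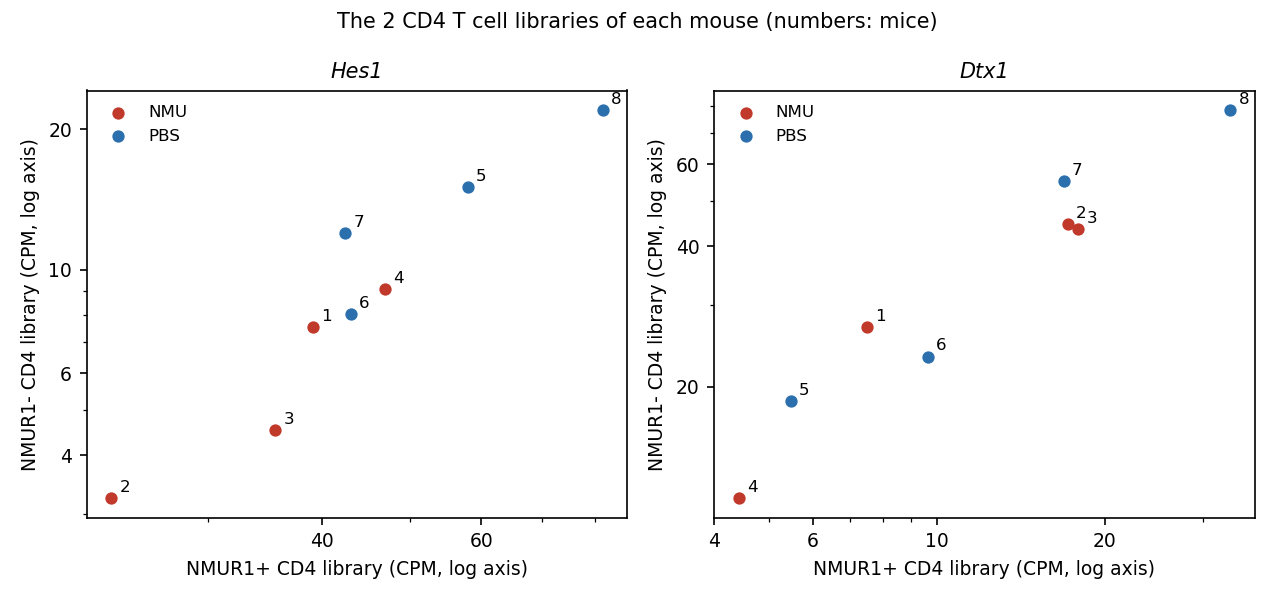
Hes1 and Dtx1 in the NMUR1+ library (horizontal) and the NMUR1- library (vertical) of each mouse, in CPM on log axes, with mouse numbers beside the points, NMU in red and PBS in blue. Mouse 8 is highest in both libraries for both genes (81.65 and 21.99 CPM for Hes1, 33.55 and 78.44 CPM for Dtx1).

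Over the 24 libraries and 6272 genes with a mean of at least 20 CPM, the genes with log2 levels most like Hes1 were Gadd45b (Pearson's r = 0.983), Nr4a1 (0.981), Slc7a8 (0.977), Zfp36 (0.976) and Nfkbid (0.975). Nr4a1, an orphan nuclear receptor, had means of 5885 CPM in ILC2, 931 in NMUR1+ and 561.5 in NMUR1- cells. The least alike were Ms4a4b (-0.97), Lcp1 (-0.955), Sh2d1a (-0.953), Lck (-0.953) and Lat (-0.951). Lck, the kinase next to the T cell receptor, had means of 116 CPM in ILC2, 1446 in NMUR1+ and 1831 in NMUR1- cells. The points share mice, populations and scaling, so these values describe the libraries and carry no test.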

How the data were processed

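The authors deposited raw counts for each gene in each library, as whole numbers without scaling. Reads were aligned with STAR 2.5.3 to mm10, per the submitters' processing notes. Counter, annotation and strand setting: not given in the sources used here. Overlapping and antisense genes could therefore share reads. Per the labels' protocols, libraries came from a low-input kit without molecular identifiers, and the floors (3 counts per library) cover counting error only. Identifiers were matched to RefSeq symbols: 25275 matched, and 1904 did not and hold 0.986% of counts.

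Genes kept by filterByExpr (minimum count 10) were tested in edgeR 4.0.16 (R 4.3.3) with TMM scaling (factors 0.723 to 1.16), robust quasi-likelihood fits and Benjamini-Hochberg adjustment over all genes tested, at 0.05. NMU was compared with PBS on the 8 libraries of a population. Populations, and differences between NMU effects, were tested in 1 fit of 24 libraries with 6 group means. CPM use TMM-scaled library sizes, and exon lengths and member coordinates come from GENCODE M21 and RefSeq on GRCm38. The procedure was tested on simulated data.

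The members and the lists were chosen with earlier results of these data known. Named are the 8 members in every comparison; every Notch receptor and ligand; up to 3 genes per list and direction that passed, if the higher group had 5 CPM or more; and the 5 genes most and least like Hes1. A few others (Maml3, Hes5, Hes6, Hes7, Hey2, Heyl, Bhlhe41, Il2ra, Il7r, Ahr) were named after their values were seen, to account for counts. Single cell type markers were named beside the marker lists in the same way. A few genes that the rule selects are not reported here.

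The labels give the 3 populations of a mouse the same number. Their deviations from group means correlated at -0.00972 to 0.155 (ILC2 with NMUR1+), 2.52e-05 to 0.228 (ILC2 with NMUR1-) and 0.0278 to 0.431 (NMUR1+ with NMUR1-). The series text treats the samples of a mouse as independent, so the mouse enters as a block only as an alternative; NMU and PBS mice are not paired. Replicates differed beyond sampling noise (lowest chi-square per degree of freedom 15.49). Each mouse counted as 1 within a population, whereas its 3 libraries counted separately in the fit of 24 libraries. Other alternatives were DESeq2 1.42.0, limma 3.58.1 (voom), no filter, other scaling, 1 treatment only, leaving out each mouse and leaving out the 4 NMUR1+ libraries above 20% immunoglobulin, the last added after seeing the data. That last setting kept the other libraries of these mice, so the mice differed between populations.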

Additional observations from a re-analysis of the deposited data

Results flagged for a closer look

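In 48 groups of 4 libraries (8 genes in 6 groups), 3 held a library far from the others by Dixon's test, about the number that chance gives at 1 in 20 groups. Notch1 in NMUR1+ cells of PBS mice stood at 49.44 CPM in mouse 5 and between 37.42 and 38.26 CPM in the others. Maml1 in ILC2 of NMU mice stood at 19.79 CPM in mouse 2 and between 32.36 and 32.67 CPM in the others. Nrarp in ILC2 of NMU mice stood at 3.429 CPM in mouse 4 and at 0 in the others.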

How the results depend on the processing

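Of 118 results for single genes, 58 kept direction and side of the threshold in every alternative. Of their 1884 values under alternatives, 1699 kept both, 147 no longer passed, 11 newly passed and 27 changed sign; Hes1 without a test kept its sign in all of them. The genes called after NMU in ILC2 rose from 74 to 665 with DESeq2 and 1053 in the fit of all 24 libraries, and the members among them other than Hes1 from 1 to 2 (Maml2 joined Rbpj) and 2; without 1 mouse they were 12 to 63 genes and 0 to 1 member, over 1.5 times fewer than 74 without each mouse but mouse 1. In NMUR1+ cells DESeq2 called 4 (0 to 1 without a mouse, mouse 2 giving the 1) and in NMUR1- cells 23. With PBS mice only, ILC2 against NMUR1+ cells fell to 3354 genes and 2 members, ILC2 against NMUR1- cells to 3437 and 2, and NMUR1+ against NMUR1- cells to 227 and 1. With NMU mice only, the first gave 3287 and 2 and the last 218 and 1. Without the libraries above 20% immunoglobulin NMUR1+ against NMUR1- cells gave 393 and 1, and without 1 mouse 609 to 1035 and 1 to 2 (over 1.5 times fewer than 1123 without mouse 3, 7 or 8).

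With the mouse as a replicate block, the difference between NMU effects in ILC2 and NMUR1+ cells fell from 98 to 46 genes and that with NMUR1- cells from 72 to 36. Nrarp (ILC2 against NMUR1-, -2.30, adjusted p = 0.045) newly passed and Ccnd1 (NMUR1+ against NMUR1-, 0.88, adjusted p = 0.0513) no longer did; the block changed no other call. The same 2 counts were 542 and 412 with DESeq2 and 21 and 25 with voom, 30 to 106 and 20 to 83 without 1 mouse (0 to 1 member each, Nrarp without mouse 4); the first was 54 without a filter and 15 without the libraries above 20% immunoglobulin.

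Signs turned for small log2 differences that had not passed. After NMU in ILC2 they were Notch1 -0.02 and Dtx1 -0.07 with voom. In NMUR1+ cells they were Notch1 -0.04 and Nrarp -0.59 without the libraries above 20% immunoglobulin. Between populations they were Nrarp 1.09 (ILC2 against NMUR1+, PBS mice only), Maml2 -0.17 (ILC2 against NMUR1-, NMU mice only) and Notch1 0.15 (NMUR1+ against NMUR1-, NMU mice only). Leaving out 1 mouse at a time gave ranges that crossed 0 after NMU in ILC2 for Notch2 (-0.40 to 0.04), Dtx1 (-0.33 to 0.27) and Maml1 (-0.02 to 0.23). They did in NMUR1+ cells for Notch1 (-0.15 to 0.13), Notch2 (-0.07 to 0.25) and Dtx1 (-0.76 to 0.14), and in NMUR1- cells for Notch2 (-0.25 to 0.02), Rbpj (-0.02 to 0.43), Maml1 (-0.18 to 0.21) and Jag1 (-0.30 to 0.06). Between NMUR1+ and NMUR1- cells they did for Notch1 (-0.14 to 0.01) and Maml1 (-0.05 to 0.16). The cause was not tested, beyond the smaller number of libraries where some were left out. Depth limits Nrarp, Notch3, Notch4 and the ligands other than Jag1, whose libraries often hold few or no counts.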

Other observations

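The same mouse of each treatment had the most Hey1 in ILC2 and in NMUR1- cells. Mouse 1 had the most Hey1 of the NMU mice in both (139 and 29.4 CPM, the others at 32.8 to 44.1 and 12.4 to 17.3 CPM), and mouse 5 the most of the PBS mice (229 and 23.3 CPM, the others at 97.5 to 125.5 and 7.96 to 12.9 CPM). In NMUR1+ cells, mouse 5 was also the highest PBS mouse (12.7 CPM), whereas mouse 1 (12.9 CPM) lay beside mouse 3 (12.7 CPM). The order of the other PBS mice differed between these populations. Hes1 did not show this, being lowest in mouse 1 among ILC2 libraries. The pattern was noticed in the values and was not tested.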
